A study of Mus musculus with 6 samples.

Results

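Skeletal muscle fibre-type and sarcomere genes were followed in ectopic endometriosis lesions of the mouse. The group holds 47 genes of the 56884 in the count table: the myosin heavy and light chains, troponins, actins and other proteins of the sarcomere, the calcium-handling proteins of the fibre, muscle creatine kinases, myoglobin and 2 genes of the neuromuscular junction. They were chosen by their counts, which were high in 2 of the 3 control lesions and low in the Dnmt3a KO lesions, so their differences between the genotypes are a description, and the calls counted for them near the end carry no weight as a test. What the list did not use is the ratio of one isoform to another within a lesion, and most of the results below are such ratios. All 47 genes were found by identifier.

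The lesions grew from uterine tissue placed in the peritoneal cavity of wild-type recipient mice that carried an estrogen pellet. Control (WT) lesions came from Dnmt3a f/f donors (n = 3), and Dnmt3a KO lesions from Dnmt3a f/f:PR-Cre/+ donors (n = 3), in which Cre recombinase acts in cells that express the progesterone receptor. The floxed allele is therefore shared by both groups, and cells that the recipient adds to a lesion keep Dnmt3a in both. The labels give 4 weeks as the time for all 6 lesions, whereas the study's methods give an earlier collection day. By those methods each uterine fragment was sutured to mesentery. Each lesion is 1 library of messenger RNA from whole tissue, with 45370342 to 57239184 counts. Values of a group are given in the order of replicates 1, 2 and 3 throughout. The targeted gene Dnmt3a was at 52.7, 43.9 and 51.7 CPM among the WT and at 30.3, 33.5 and 36.2 CPM among the KO lesions, where CPM stands for counts after scaling by library size and TMM factor. Of the labelled tissue, Krt8, a keratin of simple epithelium, lay in every lesion between 146 and 315 CPM per kilobase of gene length, and the summed level of 13 uterine epithelial and stromal genes between 1826 and 3633 CPM. Foxa2, the factor of uterine glands, was low, with 6, 12 and 68 counts among the WT and 18, 132 and 0 among the KO lesions.

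A muscle fibre shortens when myosin heads of its thick filaments pull on actin filaments. Troponin and tropomyosin on the actin filament block this until calcium is released from the sarcoplasmic reticulum. Many of these proteins come in fast and slow forms encoded by separate genes, and the adult myosin heavy chains define the fibre types: Myh7 slow, Myh2 fast IIa, Myh1 fast IIx and Myh4 fast IIb. Myh3 (embryonic) and Myh8 (perinatal) are used during development and return when fibres regenerate. In mice the IIb form prevails in fast limb and trunk muscle, and postural muscle such as soleus mixes slow and IIa fibres. Neither uterus nor mesentery contains sarcomeric skeletal muscle.

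Muscle transcripts were abundant in WT replicates 1 and 3 and nearly absent from the other 4 lesions. The 47 genes held 5.26% of all counts of WT replicate 1 (Wilson 95% interval 5.25% to 5.27%) and 5.07% of WT replicate 3 (5.06% to 5.07%). The same genes held 0.0102% in WT replicate 2 (0.00991% to 0.0105%). KO replicates 1, 2 and 3 had 0.00793% (0.00771% to 0.00817%), 0.00672% (0.00649% to 0.00695%) and 0.0137% (0.0133% to 0.0140%). WT replicate 2 lay between the KO lesions, so the WT and KO groups overlapped. These intervals cover counting error only, and about 90% of the small counts were even numbers (89.2% to 90.6% of counts from 1 to 20), as counting both reads of a pair would give, so the intervals are too narrow. In tissue libraries of this kind, fewer muscle fibres and less muscle RNA per fibre cannot be told apart.

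**Figure D1:**
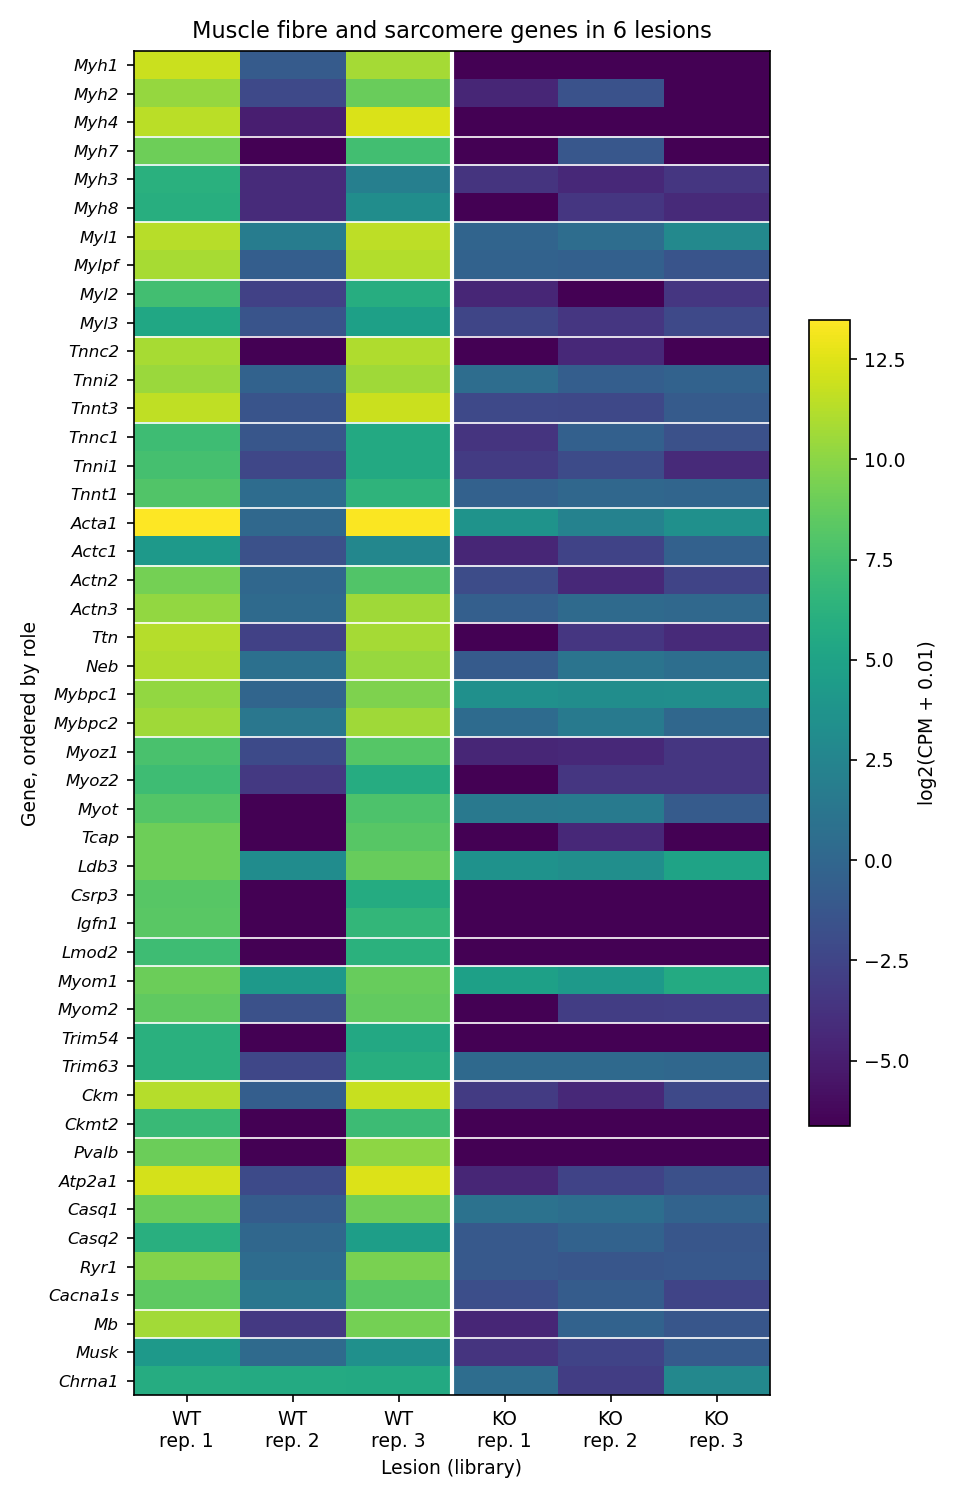
Level of each of the 47 genes (rows, ordered by role) in each of the 6 lesions (columns), as log2 of CPM plus 0.01. The columns of WT replicates 1 and 3 are bright throughout, and WT replicate 2 is dark like the KO lesions for most genes, but bright at Chrna1 in the last row and darker than them at Mybpc1 and Myot.

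The contrast was the same across the list. Of the 47 genes, 46 were higher in WT replicates 1 and 3 than in each of the other 4 lesions, the exception being Chrna1. Nothing is read from that count, since the genes were chosen for high counts in those lesions. All 47 had counts in WT replicates 1 and 3, and 45 and 43 of them reached 1000 counts there. In WT replicate 2, 10 genes were at 0, and among the KO lesions 15, 9 and 12. A total of 36 genes stayed under 100 counts in WT replicate 2 and in every KO lesion, the highest of those values being 84 counts. WT replicate 2 was above all KO lesions for 17 genes and below all of them for 7. The share of all genes with any of these orders was not computed, so the counts are a description.

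Acta1, the alpha-actin of the skeletal thin filament, was the most abundant gene of the list. Its counts were 538183, 48 and 495280 among the WT and 736, 248 and 536 among the KO lesions. WT lesions had a mean of 7356 ± 6386 CPM (SD, n = 3), KO lesions one of 9.67 ± 4.2 CPM (SD, n = 3), and WT replicate 2 was lower than every KO lesion, at 1.08 CPM. Acta1 lies on chromosome 8 (GRCm38, chr8:123891769-123894751, minus strand). Actc1, the cardiac alpha-actin that is also made in developing and regenerating skeletal muscle, had 906, 14 and 306 counts in the WT and 2, 8 and 36 in the KO lesions. Per kilobase it was at 12 and 4.04 CPM in WT replicates 1 and 3, against 7481 and 6887 for Acta1.

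The 6 skeletal myosin heavy chain genes give the fibre types. Myh3, Myh2, Myh1, Myh4 and Myh8 stand in this order on the plus strand of chromosome 11, from chr11:67078300-67102291 (Myh3) to chr11:67277124-67308634 (Myh8) on GRCm38, and Myh7 is on chromosome 14 (chr14:54970684-54994626). The start regions of the 3 adult fast genes are shown because their make-up differed between the lesions although the genes are neighbours. Each line gives the 250 bases before the RefSeq transcription start (GRCm38.p6, plus strand: Myh4 chr11:67237562-67237811, Myh1 chr11:67199852-67200101, Myh2 chr11:67170777-67171026), 5′ to 3′. Capitals mark the 20-base stretch that all 3 share, which was found in 3 of the 32851 promoters in the table.
Myh4: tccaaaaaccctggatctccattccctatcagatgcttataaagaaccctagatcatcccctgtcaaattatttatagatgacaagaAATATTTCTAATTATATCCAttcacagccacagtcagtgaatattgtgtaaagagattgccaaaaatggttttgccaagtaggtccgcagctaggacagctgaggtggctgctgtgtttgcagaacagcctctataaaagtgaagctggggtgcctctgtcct
Myh1: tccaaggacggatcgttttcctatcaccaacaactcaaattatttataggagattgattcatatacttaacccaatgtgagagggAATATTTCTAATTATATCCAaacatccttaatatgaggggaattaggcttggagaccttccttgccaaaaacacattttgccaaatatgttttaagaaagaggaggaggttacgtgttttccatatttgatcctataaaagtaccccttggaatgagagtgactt
Myh2: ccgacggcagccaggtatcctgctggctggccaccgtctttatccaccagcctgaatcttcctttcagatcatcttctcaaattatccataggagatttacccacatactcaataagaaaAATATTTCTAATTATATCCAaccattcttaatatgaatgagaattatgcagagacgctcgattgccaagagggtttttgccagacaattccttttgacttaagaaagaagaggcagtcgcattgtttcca
Myh4 and Myh1 also each hold a MEF2 motif, from -182 to -173 and from -211 to -202 relative to the start, and no match to that motif was found in the window of Myh2. A match of letters is a description of the sequence, not a measured binding site.

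Myh4, the fast IIb chain, had 124259, 1 and 243258 counts in the WT and 0 counts in each KO lesion. A value of 0 allows up to 3 counts per library, and more if both reads of a pair were counted. Myh1, the fast IIx chain, had 180235, 24 and 81252 counts in the WT and 0 counts in each KO lesion. Myh2, the fast IIa chain, had 59433, 9 and 22182 counts in the WT and 2, 16 and 0 counts in the KO lesions. Every WT lesion was above every KO lesion for Myh4 and Myh1, although for Myh4 the WT replicate 2 value was 1 count. Myh7, the slow chain that heart can also make, had 25406, 0 and 7768 counts in the WT and 0, 22 and 0 counts in the KO lesions. The embryonic Myh3 had 3359, 2 and 189 counts in the WT and 4, 2 and 4 counts in the KO lesions. The perinatal Myh8 had 2984, 2 and 434 counts in the WT and 0, 4 and 2 counts in the KO lesions. Myosin heavy chain genes are close copies of each other, so a small part of the reads may have been counted for a neighbouring gene.

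Fast chains made up nearly all adult myosin heavy chain in both muscle-rich lesions. Per kilobase of gene length, the fast share of adult heavy chain was 95.1% in WT replicate 1 and reached 98.4% in WT replicate 3. Which fast chain led was not the same. In WT replicate 1, Myh1 held 46.4% of the 6 genes, Myh4 33.8%, Myh2 13.6% and Myh7 4.83%. In WT replicate 3, Myh4 held 70.6%, Myh1 22.3%, Myh2 5.42% and Myh7 1.57%. Myh1 was thus 1.37 times the level of Myh4 in WT replicate 1, whereas in WT replicate 3 Myh4 was 3.16 times the level of Myh1. Together Myh4 and Myh1 held 80.2% and 92.9%. The developmental chains Myh3 and Myh8 held 1.32% in WT replicate 1 and 0.119% in WT replicate 3. These 2 lesions are 1 library each, and the differences between them compare those lesions only. In the other lesions the 6 genes had 38 counts (WT replicate 2) and 6, 44 and 6 counts (KO replicates 1, 2 and 3), too few for a fibre type.

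**Figure D2:**
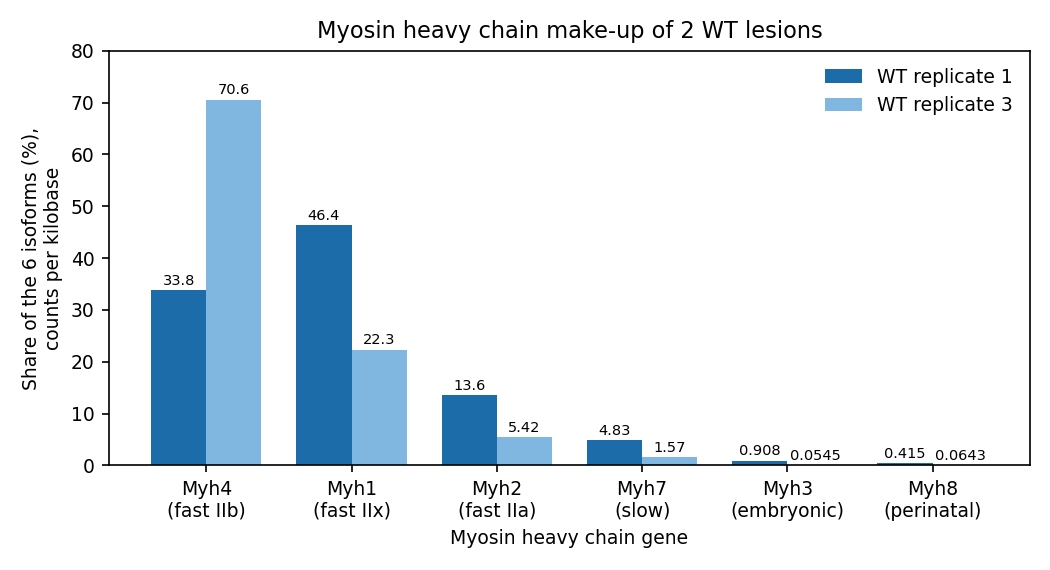
Share of each of 6 myosin heavy chain genes among their sum, in percent of counts per kilobase, in WT replicates 1 (dark) and 3 (light), the lesions with enough counts. Myh1 leads in WT replicate 1 at 46.4% and Myh4 in WT replicate 3 at 70.6%, and the slow and developmental genes stay under 5% in both.

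The light chains, which brace the lever arm of myosin, showed the same lesions high. The fast Mylpf had 87559, 28 and 105287 counts in the WT and 46, 36 and 18 in the KO lesions, and its slow counterpart Myl2 7769, 6 and 2827 against 2, 0 and 4. The fast Myl1 had 119041, 152 and 130657 counts in the WT and 50, 72 and 350 in the KO lesions, and its slow counterpart Myl3 1944, 16 and 1338 against 10, 4 and 10. WT replicate 2 overlapped the KO lesions for Mylpf and Myl1 and was above them, at few counts, for Myl2 and Myl3.

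The troponins, the calcium switch of the thin filament, followed. Among the fast forms, Tnnc2 had 85451, 0 and 104512 counts in the WT and 0, 2 and 0 in the KO lesions, Tnni2 65005, 36 and 74745 against 84, 32 and 38, and Tnnt3 139448, 16 and 171670 against 12, 10 and 26. Among the slow forms, Tnnc1 had 7246, 18 and 2244 counts in the WT and 4, 36 and 15 in the KO lesions, Tnni1 8573, 8 and 2199 against 6, 12 and 2, and Tnnt1 12472, 60 and 4105 against 42, 52 and 46. Of these 6 genes, the WT and KO lesions did not overlap for Tnnt1 and overlapped for the others, each time through WT replicate 2.

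Fast forms also prevailed in the shares of light chains and troponins. The fast share of the regulatory light chain (Mylpf against Myl2) was 95.4% in WT replicate 1 and 98.6% in WT replicate 3, and that of the essential light chain (Myl1 against Myl3) 98.4% and 99.0%. For troponin C, which binds calcium (Tnnc2 against Tnnc1), it was 93.9% and 98.4%. For the inhibitory troponin I (Tnni2 against Tnni1) it was 94.8% and 98.8%, and for troponin T, which ties the complex to tropomyosin (Tnnt3 against Tnnt1), 94.0% and 98.3%. Every one of these shares was higher in WT replicate 3 than in WT replicate 1. Myl2, Myl3 and Tnnc1, the slow forms of these pairs, are also the forms of heart ventricle.

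The remaining pairs were less one-sided. Casq1 against Casq2, the calcium stores of the reticulum, gave a fast share of 91.2% and 96.9% for WT replicates 1 and 3. Myoz1 against Myoz2, Z-disc partners of calcineurin, gave 71.4% and 90.2%. Actn3, the actinin of fast fibres, against Actn2, which all fibres use, gave 72.0% and 88.7%. Mybpc2 against Mybpc1, myosin-binding proteins of which the slow form is also made in fast fibres, gave 62.1% and 71.6%. In counts, WT replicates 1 and 3 were far above the other lesions for each of these genes. Casq1 had 23427, 26 and 26259 counts in the WT and 108, 76 and 40 in the KO lesions, and Casq2 3165, 46 and 1160 against 28, 40 and 20. Myoz1 had 9907, 10 and 13753 counts in the WT and 2, 2 and 4 in the KO lesions, and Myoz2 7170, 4 and 2694 against 0, 4 and 4. Actn3 had 55795, 56 and 71677 counts in the WT and 38, 62 and 52 in the KO lesions, and Actn2 28358, 46 and 11887 against 14, 2 and 8. On the CPM scale WT replicate 2 was above every KO lesion for Casq2, Myoz1, Myoz2, Actn2 and Actn3 and below every one for Casq1. Over the 10 pairs the median fast share was 93.9% and 98.3%, and all 10 pairs were over 50% in both lesions.

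**Figure D3:**
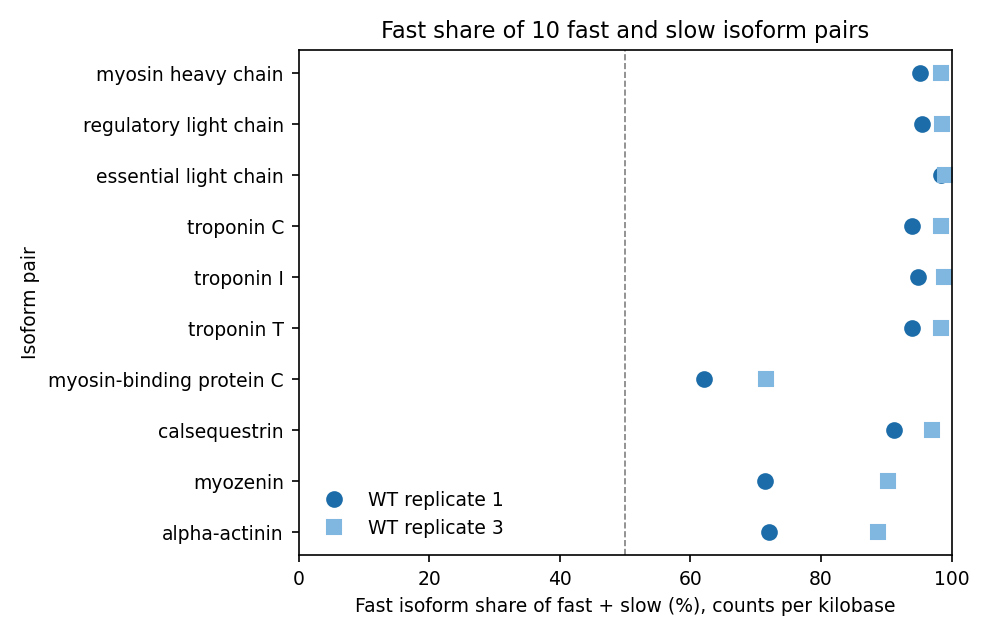
Fast isoform as a share of fast plus slow, in percent of counts per kilobase, for 10 isoform pairs in WT replicates 1 (circles) and 3 (squares). All points lie to the right of the dashed line at 50%, and WT replicate 3 lies to the right of WT replicate 1 in every pair.

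In the other lesions a pair was read only where it had at least 100 counts, which left 3 pairs in WT replicate 2 and 2 in each KO lesion. The myosin-binding protein pair was the only one readable in all 4. Its fast share was 76.7% in WT replicate 2 and 12.9%, 28.6% and 11.4% in the KO lesions, so the slow form Mybpc1 led in the KO lesions. Mybpc1 had 629, 482 and 476 counts in the KO lesions against 42 in WT replicate 2, and Mybpc2 had 74, 154 and 49 against 110. In WT replicates 1 and 3, Mybpc1 had 56705 and 37180 counts and Mybpc2 74242 and 74811. In the other readable pairs the fast form led: Casq1 held 84.4% and 72.7% in KO replicates 1 and 2, Myl1 97.2% in KO replicate 3 and 90.3% in WT replicate 2, and Actn3 61.4% in WT replicate 2.

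The slow and developmental forms stood higher in WT replicate 1 than in WT replicate 3. On the CPM scale, all 6 slow myosin and troponin genes were higher there, by 1.45-fold (Myl3) to 3.90-fold (Tnni1), and the 5 fast light chain and troponin genes were all lower, with ratios from 0.812 to 0.911. Myh3 was 17.8-fold and Myh8 6.87-fold higher in WT replicate 1. Csrp3, a muscle LIM protein of the Z-disc that responds to stretch, was 5.77-fold higher, Igfn1, another Z-disc protein, 3.06-fold, and Mb, the oxygen-storing myoglobin, 2.60-fold. In the other direction, Pvalb, the calcium buffer of fast fibres, had a ratio of 0.466, Myh4 of 0.511 and Ckm of 0.688. Over the 47 genes the median ratio was 1.36, and 32 were higher in WT replicate 1. Despite this shift the order of levels was much alike, with a Spearman correlation of 0.945 between the CPM per kilobase of WT replicates 1 and 3 over the 47 genes. The points of that correlation are genes and not replicates.

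**Figure D4:**
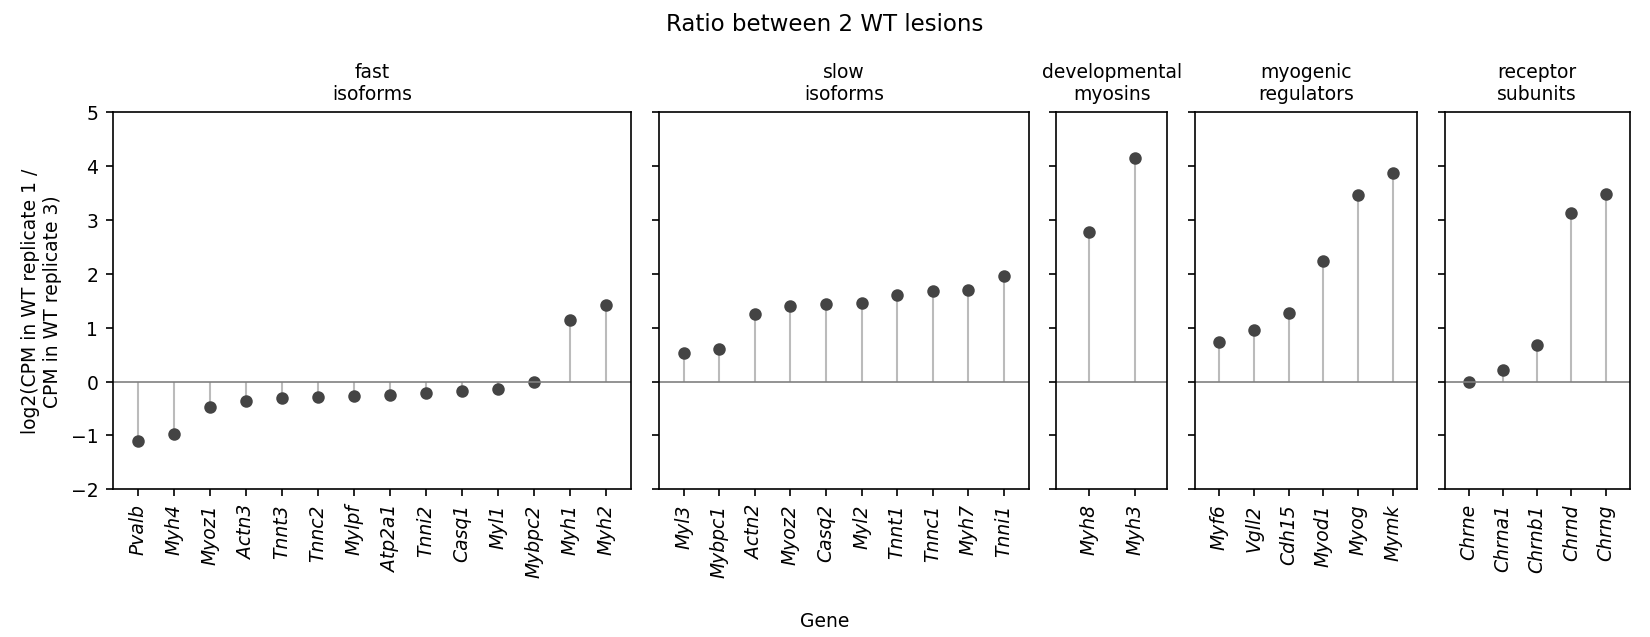
Log2 of the CPM in WT replicate 1 over the CPM in WT replicate 3 for fast isoforms, slow isoforms, developmental myosins, myogenic regulators and acetylcholine receptor subunits, each point a gene. Fast isoforms lie near or below 0 except Myh1 and Myh2, slow isoforms lie above 0, and of the genes drawn Myh3, Mymk, Chrng and Myog are farthest up. Mymx, with 2 counts in WT replicate 3, is not drawn.

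Regulators of muscle formation were also higher in WT replicate 1. Myog, the factor that turns myoblasts into myotubes, had 838 counts in WT replicate 1 and 76 in WT replicate 3 (CPM ratio 11) and 0 in the other 4 lesions. The CPM ratio of WT replicate 1 to WT replicate 3 was 14.6 for Mymk, which fuses myoblasts (468 and 32 counts), 4.71 for the determination factor Myod1 and 2.77 for Pax7, the factor of satellite cells. Mymx, the partner of Mymk, had 62 and 2 counts, too few in WT replicate 3 for a ratio. Myf6, the member of this family kept in adult fibres, was the most abundant of them, at 30.4 and 18.3 CPM per kilobase. The fetal receptor subunit Chrng, which adult innervated fibres replace with Chrne, had 180 and 16 counts in WT replicates 1 and 3, while Chrne had 38 in both. Chrng was therefore 1.92 times the level of Chrne per kilobase in WT replicate 1 and 0.171 times in WT replicate 3. Chrng was at 0 counts in the other 4 lesions.

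Z-disc, M-band and giant filament genes were carried at their own levels in both muscle-rich lesions. In CPM per kilobase of WT replicates 1 and 3, Tcap, the cap of titin, was at 561 and 318, Myot, a Z-disc linker, at 125 and 106, and Ldb3, which binds actinin, at 86.4 and 72.6. Ttn, the molecular spring of the sarcomere, was at 20.5 and 15.1, and Neb, the ruler of the thin filament, at 80.6 and 51.6. Lmod2, which elongates thin filaments, was at 74.6 and 38.3. The M-band genes Myom1 and Myom2 were at 47.3 and 42.1 and at 42.6 and 45.9. Trim54 and Trim63, ubiquitin ligases of the sarcomere, were at 50.01 and 32.1 and at 24.5 and 22.5.

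Genes of contraction and energy supply reached the highest levels after Acta1. Tnnc2 was at 2280 and 2790, Tnnt3 at 1881 and 2316 and Mylpf at 1760 and 2117 CPM per kilobase in WT replicates 1 and 3. Atp2a1, the calcium pump of fast fibres, was at 1359 and 1620, and Ckm, the cytosolic creatine kinase, at 840 and 1220. Its mitochondrial partner Ckmt2 was at 84.2 and 94.1. Ryr1, the calcium release channel, and Cacna1s, its voltage sensor, were at 40.6 and 32.5 and at 54.0 and 48.6. Csrp3, Igfn1, Lmod2, Trim54, Ckmt2 and Pvalb had 0 counts in WT replicate 2 and in all KO lesions.

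Start regions of Acta1, Ckm and Chrna1 are shown as the most abundant gene, a gene that nearly vanished outside the muscle-rich lesions, and the gene with another pattern. The windows are the 250 bases before the RefSeq start on GRCm38.p6 (Acta1 chr8:123894776-123895025, minus strand; Ckm chr7:19410844-19411093, plus strand; Chrna1 chr2:73580339-73580588, minus strand), 5′ to 3′. Capitals mark E-boxes (CANNTG, the letters that myogenic regulators bind) and, in Acta1, a CArG box from -73 to -64, the letters that serum response factor binds.
Acta1: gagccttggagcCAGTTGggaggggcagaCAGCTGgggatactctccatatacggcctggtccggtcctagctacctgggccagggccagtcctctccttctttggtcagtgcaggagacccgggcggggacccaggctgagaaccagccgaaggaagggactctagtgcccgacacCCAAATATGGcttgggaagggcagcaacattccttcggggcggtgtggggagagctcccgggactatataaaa
Ckm: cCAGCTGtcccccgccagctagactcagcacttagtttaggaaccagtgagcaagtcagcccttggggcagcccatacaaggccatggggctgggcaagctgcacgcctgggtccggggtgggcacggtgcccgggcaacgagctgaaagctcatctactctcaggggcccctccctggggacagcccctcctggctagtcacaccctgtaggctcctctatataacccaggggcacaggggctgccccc
Chrna1: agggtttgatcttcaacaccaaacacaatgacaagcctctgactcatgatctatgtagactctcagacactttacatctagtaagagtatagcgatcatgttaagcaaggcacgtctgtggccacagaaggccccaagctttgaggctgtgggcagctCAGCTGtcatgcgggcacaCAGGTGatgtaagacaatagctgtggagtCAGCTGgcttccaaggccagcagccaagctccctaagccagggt
Promoters were found for 39 of the 47 genes, 47 promoters in all. On either strand, CANNTG was in 40 of these 47 (85.1%) and in 66.2% of all 32851 promoters. CAGCTG, which is one form of CANNTG, was in 21 (44.7%) against 13%. The CArG box was in 7 (14.9%) against 1.47% and the MEF2 motif in 7 (14.9%) against 2.92%. TATAAA, which can overlap the MEF2 motif, was in 9 (19.1%) against 12.4%, and CATTCC in 11 (23.4%) against 12.6%. These shares describe the letters in the windows and were not tested.

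Chrna1, the alpha subunit of the muscle acetylcholine receptor, did not follow the other genes. Its counts were 2667, 2282 and 2298 among the WT and 81, 6 and 330 among the KO lesions. WT replicate 2 therefore stood with WT replicates 1 and 3 for this gene alone, and Chrna1 held 49.3% of all member counts there. WT lesions had a mean of 52.5 ± 4.04 CPM (SD, n = 3) and KO lesions one of 2.81 ± 3.59 CPM (SD, n = 3), without overlap, which gave a log2 fold change of -4.23 (SE 1.24). Musk, the receptor kinase that gathers acetylcholine receptors at the synapse, was at 18.4, 1.26 and 10.7 CPM among the WT and at 0.0702, 0.159 and 0.5 CPM among the KO lesions. Every WT lesion was above every KO lesion, with WT replicate 2 far below the other WT lesions. The partner subunits Chrnb1 and Chrnd had 4.04 and 0.0411 CPM per kilobase in WT replicate 2, against 11.7 for Chrna1.

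A few other genes kept a level in lesions without the rest of the list. Besides Chrna1, 10 genes reached 100 counts in WT replicate 2 or in a KO lesion. Myom1 had 792 counts in WT replicate 2 and 1569, 914 and 2413 in the KO lesions, and was the leading gene of the list in each KO lesion, with 34.6%, 28.4% and 38.4% of its counts. Ldb3 had 402 counts in WT replicate 2 and 683, 490 and 1541 in the KO lesions. Among these 4 lesions both genes were highest in KO replicate 3 and lowest in WT replicate 2, whereas the summed level of adipocyte genes was highest in KO replicate 3 (8230 CPM) and next in WT replicate 2 (5182 CPM), and the part of other cell types in these counts was not tested. The others were Acta1, Myl1, Neb, Mybpc1, Mybpc2, Myot, Casq1 and Cacna1s.

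In the KO against WT comparison, the lower level of the list rests on WT replicates 1 and 3. A gene was called lower at an unadjusted p under 0.05 and a log2 fold change below -1, and 33 of the 47 genes passed the filter on low counts. All 33 were called lower, with a median log2 fold change of -9.38, beside 5.85% of all 18177 genes tested. Nothing is read from that count, since the genes were listed for this contrast, and those that passed the filter reached the minimum level in WT replicates 1 and 3 and in at least 1 further lesion. The other 14 were Myh4, Myh3, Myh8, Myl2, Tnnc2, Ttn, Myoz2, Tcap, Csrp3, Igfn1, Lmod2, Trim54, Ckmt2 and Pvalb, and without WT replicate 2 all 47 were tested and called lower (5.86% of all genes tested then). DESeq2 called all 47 by the same rule, beside 6.06% of the genes it tested. After Benjamini-Hochberg adjustment over all genes, edgeR called 0 of the 33 (background 0.0055%), while all 33 had an unadjusted p under 0.05 and DESeq2 called 45 of the 47 (background 3.9%). The order of the lesions was less one-sided: all WT lesions were above all KO lesions for 17 of the 47 genes, 13 of them among the 33 tested (39.4%), beside 8.74% of all genes tested.

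Other skeletal muscle genes, in lists that also were drawn up with the earlier results known, went with the 47. Of 29 further sarcomere genes, 23 were tested, 18 fell and 0 rose, with a median log2 fold change of -7.11, beside 5.85% lower and 3.1% higher of all genes tested. The same background holds for the lists that follow. Tpm2 and Tpm1, tropomyosins that smooth muscle also makes, had the highest mean over the 6 lesions and did not pass, at 757, 35.1 and 711 CPM per kilobase in the WT and 75.1 to 150 in the KO lesions for Tpm2. Of 16 genes of muscle energy metabolism, 15 were tested, 15 fell and 0 rose (median -4.34). Eno3, the muscle enolase, was at 645, 2.08 and 762 CPM per kilobase in the WT and 1.28 to 1.97 in the KO lesions. Of 16 genes of excitation-contraction coupling, 12 were tested, 10 fell and 0 rose (median -5.67), and Atp2a2, the calcium pump of slow fibres and many other cells, did not pass at 137, 46.0 and 91.3 against 59.1 to 83.7 CPM per kilobase. After adjustment edgeR called 0 genes in each of these lists. Without WT replicate 2, 28 of 29 tested sarcomere genes were called lower, beside 5.86% of all genes tested then. For energy metabolism and for excitation-contraction coupling it was 15 of 16 each.

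Lists for formation, innervation and fibre type held fewer genes that passed. Of 12 fibre-type regulators, all 12 were tested, 6 fell and 0 rose (background 5.85% lower). After adjustment edgeR called 0 genes in this list and in the other lists named below. Tbx15, a factor of fast glycolytic fibres, had 2731, 6 and 2523 counts in the WT and 12, 4 and 14 in the KO lesions. Of 13 genes of the neuromuscular junction and denervation, 9 were tested and 4 fell, and Fbxo32, a ligase of muscle wasting that many tissues make, did not pass at 37.3, 19.6 and 48.4 against 21.8 to 29.2 CPM per kilobase. Of 11 myogenic regulators and satellite cell genes, 1 was tested, Mymk, and it fell. Without WT replicate 2, 8 of 8 tested were called lower in that list, beside 5.86% of all genes tested then. In the same setting 8 of 13 tested were called lower in the junction and denervation list and 7 of 12 among the fibre-type regulators.

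Several markers of heart were at or near 0, and others were not. Among 12 heart genes, Nppb and Nkx2-5 had 0 counts in every lesion, and Nppa 2 and 6 counts in WT replicate 2 and KO replicate 2 and 0 elsewhere. The heart forms Mybpc3 and Tnni3 had 0 and 2 counts in WT replicate 1 and 0 and 3 in WT replicate 3. Myh6, a myosin of heart, had 109 and 51 counts there, against 25406 and 7768 for Myh7. The extraocular myosin Myh13 had 94 and 66 counts, Myh7b 100 and 54, and Myh15 10 and 2. The atrial light chain Myl7 had 175, 96 and 148 counts in the WT and 102, 64 and 104 in the KO lesions, and Ryr2, the calcium release channel of heart, 60, 104 and 112 against 282, 206 and 126. Both were thus present also in lesions with few muscle transcripts. Heart genes that regenerating skeletal muscle also makes were higher in WT replicate 1 than in WT replicate 3: Ankrd1 at 60.3 and 8.69, Myl4 at 21.2 and 4.26 and Tnnt2 at 6.16 and 1.09 CPM per kilobase. Myl4 was at 1.83 in WT replicate 2 and at 5.74, 3.17 and 7.50 in the KO lesions. Its level in WT replicate 3 thus lay among those of lesions with few muscle transcripts. Ankrd1 was at 1.20 in WT replicate 2 and at 0.328, 0.138 and 4.14 in the KO lesions. Of the 12 heart genes 6 were tested and 2 fell, and of the 4 other myosins 2 were tested and both fell, Myh6 being counted in both lists. The isoforms measured were thus mainly those of adult fast IIb and IIx skeletal fibres, with few counts for the heart and extraocular myosins.

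Other cell types of the abdominal wall and cavity were measured beside the muscle genes. Smooth muscle genes were present in all lesions, with a summed level of 5963, 1382 and 3930 CPM in the WT and 4732, 2850 and 3917 CPM in the KO lesions. That sum includes Des, which skeletal fibres also make, so it does not rank the lesions by smooth muscle. Des held 2675, 106 and 1357 CPM of it in the WT and 371, 195 and 362 CPM in the KO lesions. All KO lesions were above all WT lesions for 7 of the 12 genes, beside 10.7% of all genes tested. Of these 12 genes, 3 rose and 1 fell in KO lesions (background 3.1% higher), and Actg2, the enteric and uterine smooth muscle actin, was at 70.2, 40.0 and 68.4 in the WT and 204, 108 and 148 CPM per kilobase in the KO lesions. Des, the desmin filament of all muscle types, was at 713, 28.1 and 362 against 51.9 to 98.7 CPM per kilobase and did not pass. Of 6 acinar pancreas genes, all were high in WT replicate 3, with a summed level of 5050 CPM against 7.19 to 16.0 in the other 5 lesions. WT replicate 1, which had as much muscle RNA, was at 8.92. Mesothelial genes summed to 337, 327 and 74.3 CPM in the WT and 50.9, 347 and 197 CPM in the KO lesions, and 0 of 7 passed. The part of the tissue taken with each lesion in these differences was not tested.

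**Figure D5:**
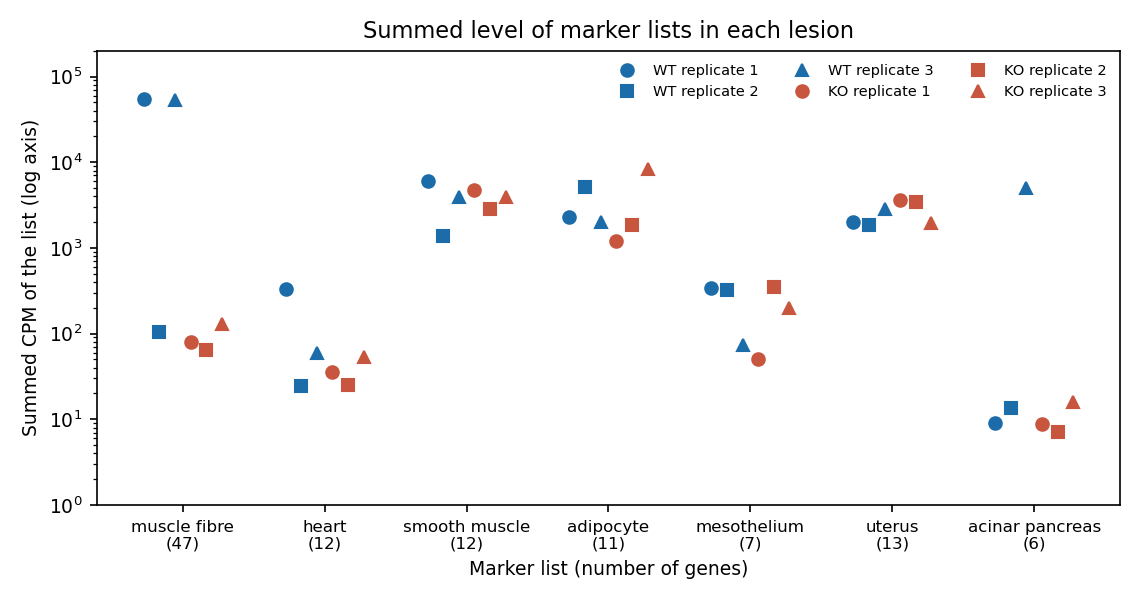
Summed CPM (log axis) of the 47 muscle genes and of marker lists for heart, smooth muscle, adipocytes, mesothelium, uterus and acinar pancreas in each lesion (blue WT, red KO; circle, square and triangle for replicates 1, 2 and 3). The muscle list separates WT replicates 1 and 3 from all others, and the acinar list separates WT replicate 3 alone. The smooth muscle sum includes Des, which skeletal fibres also make.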

How the data were processed

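The authors deposited raw counts of reads per gene for 6 libraries. Per the labels, RNA was extracted from each lesion with a column kit and stranded poly(A) libraries were made. The submitters' processing notes name Trimmomatic, featureCounts, DESeq2 and GRCm39, whereas the study's methods name GRCm38. Each library's own file was identical to its column in the table of the series (6 of 6). Symbols, gene lengths and coordinates came from GENCODE M21 on GRCm38, in which 51948 of 56884 identifiers were found without their version and 35 with the same version, so lengths are approximate. The length of a gene is the union of its exons. Promoter sequences came from RefSeq (GRCm38.p6).

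Genes were kept by filterByExpr (18177 genes), scaled by TMM (factors 0.962 to 1.05) and tested with edgeR 4.0.16 in R 4.3.3 by its quasi-likelihood test, genotype being the only term. Adjustment was by Benjamini-Hochberg over all genes tested. DESeq2 1.42.0 was an alternative, as were other scalings, no filter, the replicate number as a term and each lesion left out. Both tools were tested on simulated data for KO against WT with 18177 genes, of which 200 were changed by 3 on the log2 scale: edgeR recovered 95% by the unadjusted rule and 70% after adjustment with 5 false calls, and DESeq2 96% and 90% with 74 false calls. Isoform shares used counts per kilobase, without a test. The study's methods give as many donors as lesions in each group, while the labels do not tie lesions to animals. Intervals and floors (3 counts) cover counting error only, and the floor is too low if both reads of a pair were counted.

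All 47 members are accounted for by role, isoform genes with the value in every lesion. From each of 15 accompanying lists the defining markers and the most abundant genes are named. The members, the lists and their tests were chosen with earlier results of these data known.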

Additional observations from a re-analysis of the deposited data

How the results depend on the processing

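The call rule gave 1064 lower and 564 higher genes and 33 of the 47 muscle genes. DESeq2 called 1839 genes lower and leaving out the filter 1652. With adjusted p-values in place of unadjusted ones 1 gene was lower, 0 were higher and 0 muscle genes were called. Leaving out 1 lesion at a time gave 551 (KO replicate 1 out) to 1650 (KO replicate 3 out) lower genes, 280 (KO replicate 2 out) to 1021 (KO replicate 3 out) higher genes and 28 (WT replicate 1 out) to 47 (WT replicate 2 out) muscle genes. Leaving out KO replicate 2 gave 658 lower genes. The causes were not tested, except that leaving out the filter adds genes. The median fast share of the 10 isoform pairs in WT replicate 1 was 90.1% from raw counts, which are not divided by gene length, in place of 93.9%. In the 46 other alternative values the direction was kept. Counts stayed within 1.5 times, shares within 1 SD and the median log2 fold change within the median SE of the reported value. For the muscle share of the WT that SD is wide, as it spans lesions with and without much muscle RNA. Per kilobase this share was 7.39% in WT replicate 1 and 7.29% in WT replicate 3, in place of 5.26% and 5.07%. Over all genes tested, the median log2 fold change was 0.01 with TMM and 0.11 with upper quartile scaling.

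The labels do not say whether same-numbered lesions are paired. Deviations from the group means of same-numbered lesions correlated at 0.03, -0.15 and -0.20, which cannot decide it with 3 lesions per group. With the replicate block 573 genes were lower, 372 were higher and 10 muscle genes were called.

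Fold changes of genes at 0 in all KO lesions depend on the prior count and are no measure of size. Fibre types were read in 2 lesions only, each 1 library, and lengths from another annotation release enter every level per kilobase.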

Other observations

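Acinar pancreas genes were counted at high levels in WT replicate 3 alone. Ctrb1, a chymotrypsinogen, had 65806 counts there, Pnlip, the pancreatic lipase, 56233, Cela1, an elastase, 48336, Prss2, a trypsinogen, 24219, Cpa1, a carboxypeptidase, 23555, and Cela2a 18304. In the other lesions these genes had at most 8 counts, except Cela1 with 344 to 762. Of the 4 intestinal markers the summed level was 0.5 to 1.67 CPM in the lesions. Among the 10 genes of the combined intestine and pancreas list, 2 were tested and 1, Cela1, fell (background 5.85%).

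WT replicate 2, the control lesion with few muscle transcripts, stood apart at S100a8 and S100a9. S100a8, a subunit of calprotectin, was at 4908 CPM per kilobase there against 3.95 to 243 in the other lesions, and S100a9 at 10082 against 4.57 to 460. Retnlg, Csf3r, Mmp8 and Cxcr2 were also highest there, at 407, 179, 57.5 and 44.4. In the other lesions they reached at most 62.7, 9.67, 6.15 and 3.61. Ltf, the lactoferrin of neutrophil granules that uterine epithelium also secretes, was lowest in the same lesion, at 2864 against 4500 to 9731. Of 7 neutrophil genes 3 fell, with a median log2 fold change of -3.66, and when WT replicate 2 was left out it was -1.01 and 0 fell. Ucp1, the uncoupling protein of brown fat, was at 26.5 CPM per kilobase in WT replicate 2 and at most 0.653 elsewhere, and Cox8b, a cytochrome oxidase subunit of muscle and brown fat, at 35.6 in the same lesion, 207 and 171 in WT replicates 1 and 3 and 0.487 to 3.59 in the KO lesions. Cidea, another brown fat gene, was at 16.3 in WT replicate 2, 10.4 in KO replicate 2 and 0.383 to 1.11 elsewhere. Of 11 adipocyte genes 1 fell and 0 rose. Of 13 uterine genes 0 fell and 2 rose (background 3.1%), and of 7 Schwann cell and tendon genes 6 were tested and 1 fell.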
